A study of Mus musculus with 4 samples.

Results

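The open chromatin around 6 genes that carry sugars, peptides and amino acids across the intestinal epithelium was described in stem cells of the mouse small and large intestine. The genes were Slc5a1, Slc2a2, Slc2a5, Slc15a1, Slc6a19 and Slc7a9. Overlapping peaks (1 bp or more) of the 4 libraries were joined into common regions, and such a region belonged to a gene when it lay in the gene or within 100 kb of either of its ends (mm10). This gave 181 of the 119965 merged regions (0.151%), called as 136 and 162 regions in small-intestinal replicates 1 and 2 and as 124 and 129 in large-intestinal replicates 1 and 2. The 6 windows lay on 6 different chromosomes and shared no region. They also held or touched 21 other protein-coding genes, so a region in a window is near a transporter gene but is not thereby tied to it.

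The groups were small-intestinal stem cells (SISC), sorted for EGFP from the Lgr5 locus and against CD24, and large-intestinal stem cells (LISC), sorted for EGFP alone. Each group had 2 libraries. All mice carried the Lgr5-EGFP-IRES-creERT2 allele, in which the Lgr5 promoter drives EGFP and an inducible Cre. They were untreated and 6 to 12 weeks old. Accessible DNA was tagged by ATAC-seq, in which Tn5 transposase cuts open chromatin, from 50000 cells per library. Small-intestinal tissue came from both the pyloric and the cecal end, so SISC libraries mix proximal and distal cells. The labels do not say that replicates are separate animals, so the spread between them may be technical. The gates also differ, so tissue and gate cannot be told apart.

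Peaks were called by the authors in each library separately, and the lists held 83443 to 93220 peaks. Read depth is unknown, so a region that is not in a list was not called there, and was not shown to be closed. In cell populations, opening in fewer cells and weaker opening in every cell cannot be told apart. Of 8 stem cell genes listed as markers, 6 had a called gene end in every library, among them Lgr5, Ascl2 and Rnf43. Olfm4 had one in SISC alone, and Axin2 in SISC replicate 1 and LISC replicate 2 only. Of 8 epithelial genes, including Epcam, Cdh1 and Cdx2, all 8 had a called end in every library. The share of all genes with such an end was not counted, but 62.1% of 17492 genes had a start-site region in every library. Ends of the immune genes Ptprc, Cd3e and Csf1r were called in no library, while those of Cd79a and Itgax were called in every one. At the listed start sites, however, Itgax was called in no library, and Cd79a in SISC replicate 1 and LISC replicate 1 only. Of 5 stromal and endothelial genes, 2 had no called end in any library and Col1a1 had one in every library. Pdgfra had one in SISC replicate 1 alone, and Acta2 in SISC replicate 2 and LISC replicate 1. Of 10 genes of mature absorptive cells, 9 had a called end in each SISC library and 7 in each LISC library. The share of all genes with a called end in each library was not counted. Fabp1 and Apoa4 had ends called in SISC alone, as had 1.38% of all 21887 genes. The share of mature absorptive cells in the differences described here was not tested.

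These transporters work as a relay in absorptive enterocytes. At the brush border, SGLT1 (Slc5a1) takes up glucose and galactose with sodium, and GLUT5 (Slc2a5) takes up fructose. GLUT2 (Slc2a2) lets sugars leave through the basolateral membrane. PEPT1 (Slc15a1) imports short peptides with protons. The Slc6a19 protein imports neutral amino acids with sodium. The Slc7a9 protein pairs with that of Slc3a1 to exchange cystine and dibasic amino acids for neutral ones. Within the intestine, all are known chiefly from differentiated enterocytes, whereas the cells profiled here are the stem cells at the crypt base.

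The sequences just upstream of 4 start sites are shown. Slc2a2 had no peak within 1 kb of its start in any library. Slc6a19 had one in every library but SISC-only regions at both gene ends. At Slc15a1 and Slc7a9 the start-site peak was in every library and its −log10 q differed most between the groups. Each is the 250 bases before the start site in the RefSeq promoter table (GRCm38.p6, the same coordinates as mm10), read 5′ to 3′ along the gene's strand, with capitals at motif matches.
Slc2a2 (chr3:28697653-28697902, plus strand): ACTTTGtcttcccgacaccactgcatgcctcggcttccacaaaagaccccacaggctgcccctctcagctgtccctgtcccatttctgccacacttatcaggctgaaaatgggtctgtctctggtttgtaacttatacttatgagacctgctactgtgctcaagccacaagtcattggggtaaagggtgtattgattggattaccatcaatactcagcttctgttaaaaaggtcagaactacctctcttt
Slc15a1 (chr14:121505255-121505504, minus strand): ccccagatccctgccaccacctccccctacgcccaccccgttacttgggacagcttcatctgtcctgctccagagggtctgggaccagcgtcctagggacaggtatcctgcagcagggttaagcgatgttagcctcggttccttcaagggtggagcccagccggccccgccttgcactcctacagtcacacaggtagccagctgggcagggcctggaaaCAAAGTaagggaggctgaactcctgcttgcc
Slc6a19 (chr13:73692637-73692886, minus strand): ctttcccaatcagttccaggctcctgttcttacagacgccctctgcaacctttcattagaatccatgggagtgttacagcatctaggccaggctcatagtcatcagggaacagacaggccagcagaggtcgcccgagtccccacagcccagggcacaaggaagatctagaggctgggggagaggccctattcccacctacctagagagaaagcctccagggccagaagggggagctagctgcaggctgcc
Slc7a9 (chr7:35448842-35449091, plus strand): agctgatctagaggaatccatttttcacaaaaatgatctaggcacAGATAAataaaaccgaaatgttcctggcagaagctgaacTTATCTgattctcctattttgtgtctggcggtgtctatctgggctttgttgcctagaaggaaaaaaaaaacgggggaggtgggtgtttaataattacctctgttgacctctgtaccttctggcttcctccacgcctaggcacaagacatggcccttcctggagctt

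The motifs were searched on both strands of the 300-base promoters, of which the 250 bases above are the upstream part, and counted against 32851 RefSeq promoters of the same length. CAAAGT, a core within the longer HNF4 motif CAAAGTCCA, occurred once each at Slc2a2 (as ACTTTG, at position -250 from the start) and Slc15a1 (at -31), and in 14.4% of all promoters. The full CAAAGTCCA, in 0.475% of promoters, was in none of the members'. The GATA motif AGATAA stood at Slc7a9 at position -205 from the first of its 2 listed starts and, on the other strand (TTATCT), at -166, and in 11.2% of all promoters. The core CTCF letters AGGGGGC matched at 2 places at Slc2a5, at -170 and -152, both as GCCCCCT, and occurred in 10.6% of promoters. No member held CCATAAA (CDX, 2.75% of promoters), AGATCAAAG (TCF/LEF, 0.344%), TGANTCA (AP-1, 7.81%), GGGTGTG (KLF, 7.95%) or the HNF1 motif (0.0609%). Slc5a1 and Slc6a19 held no match at all. A match describes letters and shows no binding.

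Regions near the start sites were mostly called in both tissues. A region lay within 1 kb of a RefSeq start site in all 4 libraries for 5 of the 6 genes, against 62.1% of the 17492 protein-coding genes with a listed start. Over the Slc5a1 start (chr5:33103918-33105602), the authors' −log10 q was 134 and 132 in SISC and 125 and 88.0 in LISC. The Slc6a19 start (chr13:73692415-73693047) had a −log10 q of 53.2 and 56.7 in SISC and 52.0 and 21.4 in LISC. That at Slc7a9 (chr7:35447515-35449304) had 87.6 and 88.0 in SISC and 24.2 and 34.3 in LISC, and that at Slc15a1 (chr14:121504723-121505692) had 44.6 and 55.9 in SISC and 12.9 and 26.6 in LISC. At all 4 of these start sites both SISC values lay above both LISC values, narrowly at Slc5a1 and Slc6a19, but −log10 q depends on the depth of its own library, and the LISC replicate 2 list had the lowest median of the 4. At Slc2a5 the nearest region began 494 bp inside the gene (chr4:150119838-150121191), with a −log10 q of 133 and 96.7 in SISC and 162 and 120 in LISC, which overlapped, and none of the 300 promoter bases was covered in any library. Slc2a2 alone had no region within 1 kb of its start in any library.

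**Figure D1:**
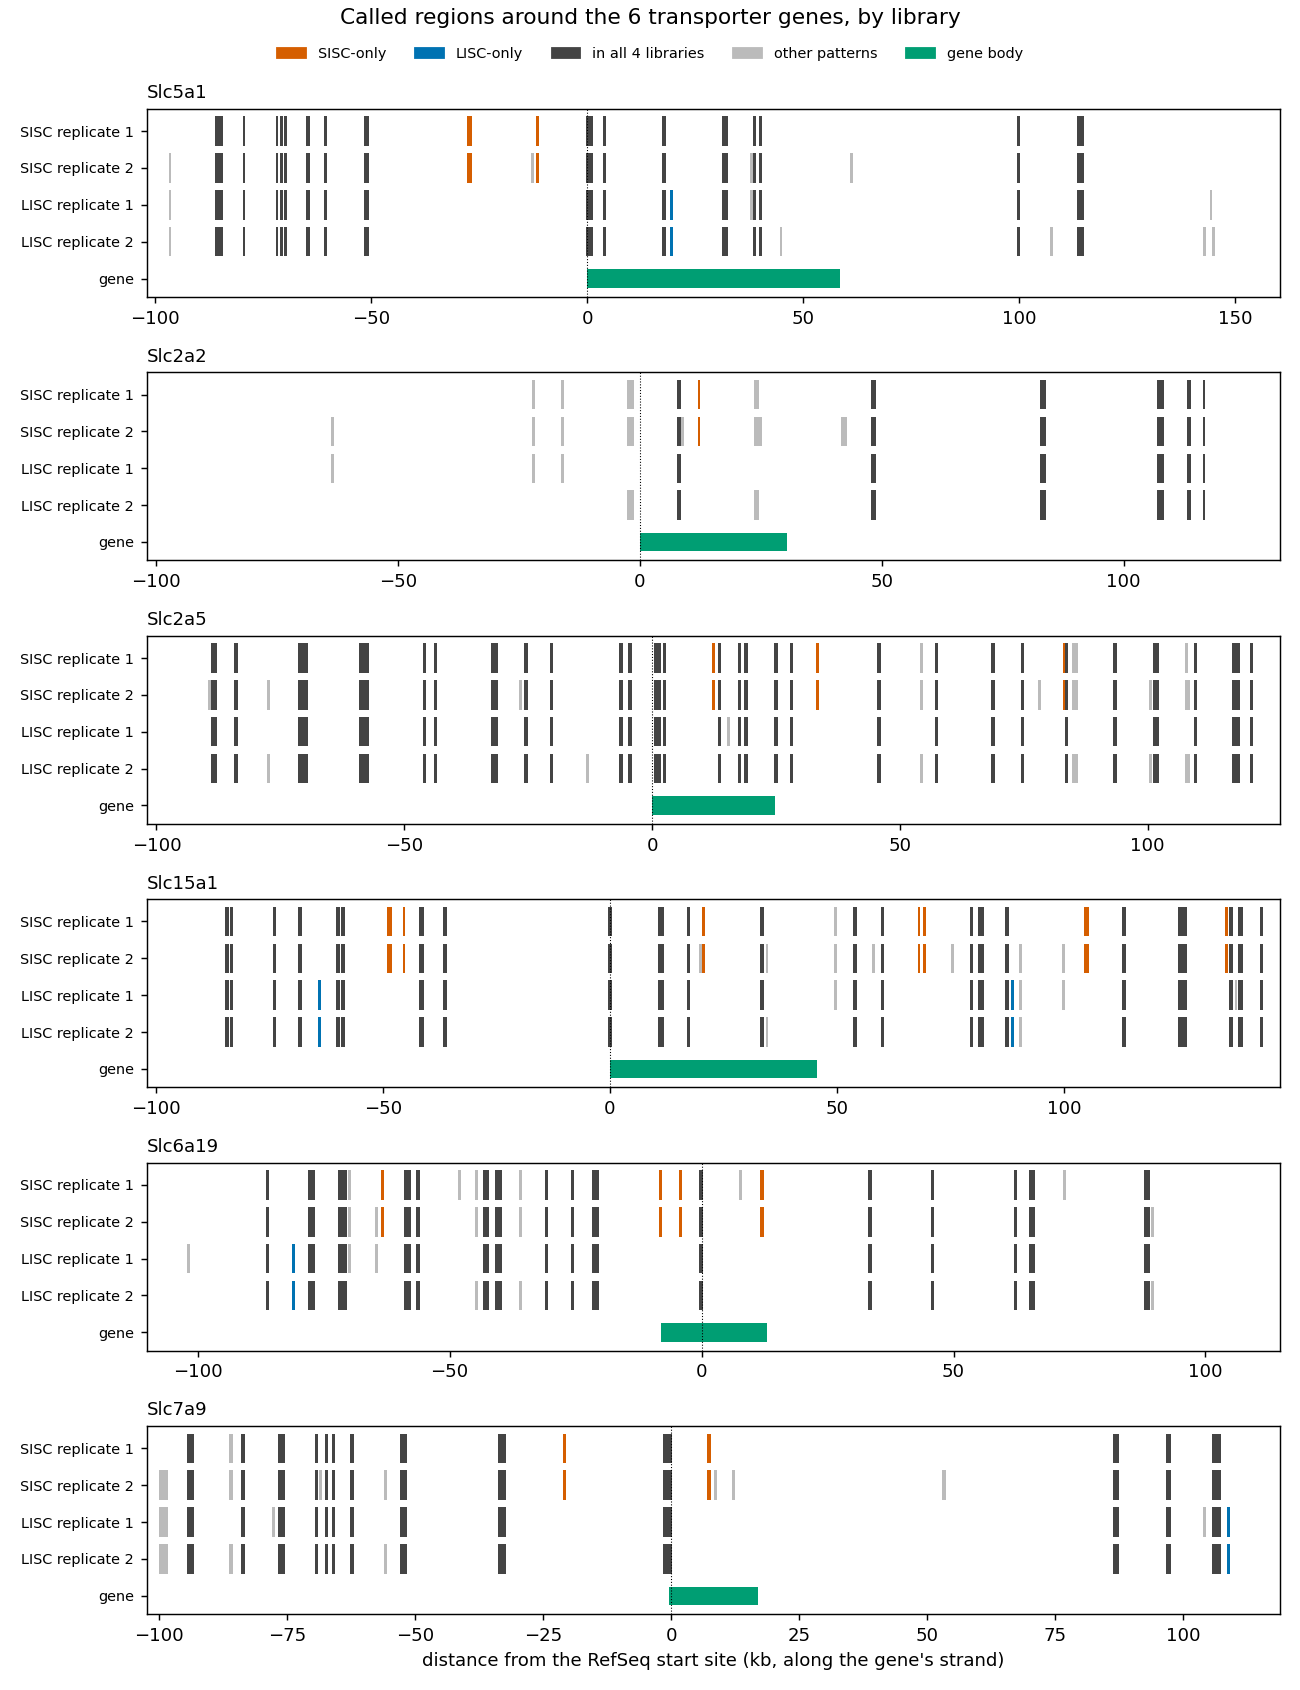
Merged regions in the window of each gene, plotted by distance from the RefSeq start site (x axis, kb along the gene's strand) and by library (rows, SISC above LISC), with the gene body in green. Orange marks SISC-only regions, blue LISC-only, dark grey regions called in all 4 libraries and light grey all other patterns. The 19 orange regions lie in all 6 windows and the 5 blue ones in 4 of them.

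Over the whole windows, regions that both SISC lists and neither LISC list held (SISC-only) outnumbered the converse (LISC-only) around each of the 6 genes. SISC-only regions numbered 19 of 181 (10.5%), against 7.96% of all merged regions, and LISC-only regions 5 (2.76%), against 10.2% of all. Regions called in all 4 libraries made up 102 (56.4%), against 48.2%. By gene, the SISC-only and LISC-only counts were 2 and 1 at Slc5a1, 1 and 0 at Slc2a2, 3 and 0 at Slc2a5, 7 and 2 at Slc15a1, 4 and 1 at Slc6a19 and 2 and 1 at Slc7a9. SISC-only regions led at 38.8% of the 19470 protein-coding genes with a region in their window, and LISC-only regions led at 36.2%. With 2 libraries against 2, no exact test over libraries can pass 0.05, and none is given for these counts. For Slc5a1 and Slc7a9 the lead was a single region, and it turned round under 4 other settings at Slc5a1 and 1 at Slc7a9. SISC-only regions numbered 35 without SISC replicate 1. LISC-only regions numbered 8 without SISC replicate 2 and 11 without either of the LISC replicates in turn.

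**Figure D2:**
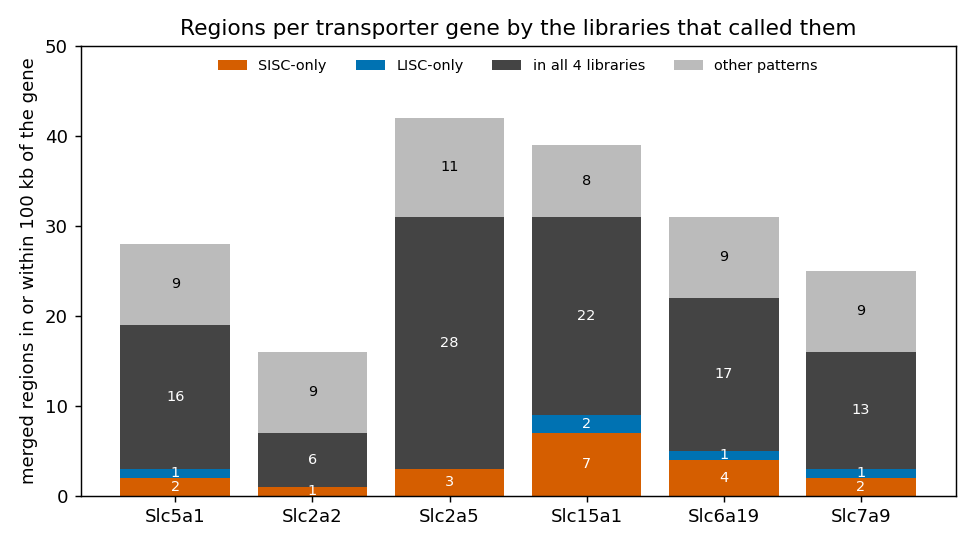
Number of merged regions in or within 100 kb of each gene (y axis), stacked from the bottom as SISC-only, LISC-only, called in all 4 libraries and other patterns. Slc15a1 had the most SISC-only regions (7) and Slc2a2 the fewest regions in all (16).

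The lead was modest for a single gene. Net SISC-only minus LISC-only regions were 5 at Slc15a1, 3 at Slc2a5 and Slc6a19, and 1 at Slc5a1, Slc2a2 and Slc7a9, with a median of 2 beside 0 over all 19470 genes. A net of 5 or more was reached by 2.75% of all genes, of 3 or more by 10.97% and of 1 or more by 38.8%. Windows of different genes can overlap and gene-dense stretches enter many times, so these shares are a description of the genome and not a test. The nets also rest on single libraries. Without SISC replicate 1 they were 8 at Slc15a1, 6 at Slc2a5, 5 at Slc2a2, 5 at Slc7a9 and 3 at Slc5a1. Without SISC replicate 2 the net was 6 at Slc6a19 and 0 at Slc5a1. Without LISC replicate 1 it was 2 at Slc2a5, 3 at Slc2a2 and -4 at Slc5a1. Without LISC replicate 2 it was 5 at Slc2a5, 3 at Slc2a2, 0 at Slc5a1 and 0 at Slc7a9.

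Several marker lists leaned to SISC as well. SISC-only and LISC-only regions numbered 29 and 11 around the 10 absorptive enterocyte genes, 14 and 1 around 4 Paneth cell genes, 21 and 2 around 4 small intestine genes, 33 and 22 around the 8 epithelial genes and 32 and 19 around the 8 stem cell genes. They numbered 7 and 41 around 5 large intestine genes, 12 and 10 around 6 immune genes and 7 and 10 around 5 stromal and endothelial genes. These are sums over gene windows, so a region can be counted for more than 1 gene of a list. Such overlap is possible at the neighbours Apoa1 and Apoa4, each with 6 SISC-only and 2 LISC-only regions, and at Krt8 and Krt18. The median net was 1.5 for the absorptive list, 3.5 for the Paneth list, 2 for the small intestine list and 1 for the epithelial list. It was -5 for the large intestine list, -0.5 for the immune list and 0 for the stromal and endothelial list. It was 0 for the stem cell list, in which 3 genes leaned to SISC, 3 to LISC and 2 to neither. Olfm4 alone had 14 of that list's 32 SISC-only regions. In the small intestine list, Gata4 alone had 15 of the 21. In the immune list, where 1 gene leaned to SISC and 3 to LISC, Itgax alone had 8 of the 12. The part of these lists in the result around the transporters was not tested.

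**Figure D3:**
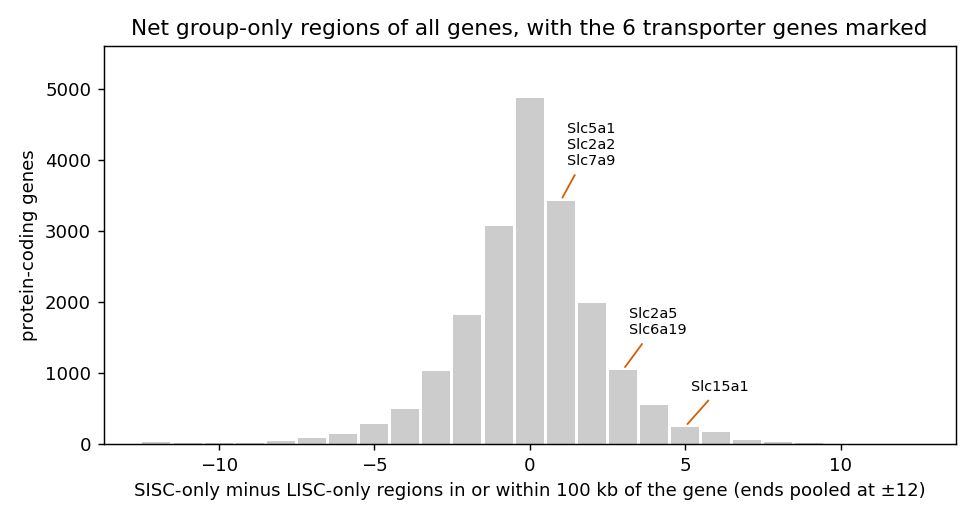
Net group-only regions (SISC-only minus LISC-only, x axis) of the 19470 protein-coding genes with at least 1 region in their window (y axis, number of genes; the outermost bars pool values beyond 12). The 6 transporter genes are marked at nets of 1, 3 and 5, all to the right of 0.

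Regions closest to the transporters themselves held most of the difference. Of the 181 regions, 59 had a transporter's end as their nearest protein-coding gene end. Among these, 11 were SISC-only (18.6%) and 1 was LISC-only (1.69%). The other 122 regions, nearest to neighbouring genes, held 8 SISC-only (6.56%) and 4 LISC-only (3.28%). Of the 19 SISC-only regions, 7 lay inside a transporter gene, 6 upstream of one and 6 downstream.

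The intestinal sugar carriers at the brush border differed in where these regions lay. Upstream of Slc5a1 stood the strongest SISC-only region of all 6 windows (chr5:33076393-33077543), 26.7 kb before the start. Its −log10 q was 216 and 165 in SISC and its fold enrichment over local background, also the authors' value, 14.4 and 12.0, and no LISC library called it. By mean within-list percentile it ranked 25 among the 9555 SISC-only regions. Another SISC-only region lay 11.1 kb before the start (chr5:33092269-33093163), with a −log10 q of 45.6 and 27.7. Slc5a1 also held the one LISC-only region nearest to a transporter, 19.3 kb inside the gene (chr5:33123499-33124118), with a −log10 q of 10.3 and 20.1. The 6 regions inside or over the start of Slc5a1 that every library called had a −log10 q of 7.41 to 194 in SISC and 5.67 to 209 in LISC. Within Slc5a1, then, chromatin was open in both tissues, and the SISC-only regions were upstream.

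At Slc2a5, the fructose carrier gene, 1 SISC-only region lay inside the gene, 12.2 kb from the start (chr4:150131515-150131994), with a −log10 q of 34.0 and 19.8. Another was inside the neighbouring Slc2a7, a further hexose carrier gene (chr4:150152435-150152941), with 26.4 and 68.5. A weak one lay 1.11 kb from an end of the carbonic anhydrase gene Car6, with 5.77 and 5.85. No LISC-only region was found in this window of 42 regions. A region 3.95 kb before the Slc2a5 start (chr4:150114441-150115398) was called in all 4 libraries, but with a −log10 q of 136 and 96.7 in SISC and 8.65 and 13.5 in LISC. The region over the far end of the gene (chr4:150144051-150144809) had 213 and 139 in SISC and 60.8 and 37.8 in LISC. In both places the SISC values lay above the LISC values. At the start of the same gene the −log10 q overlapped, and by rank among shared regions LISC was higher, at percentiles 71.96 and 63.1 in SISC and 75.4 and 80.9 in LISC.

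Slc2a2, the exit carrier gene, had the sparsest window, with 16 regions, of which 6 were in all 4 libraries. Its regions per library were 11 and 16 in SISC and 9 and 8 in LISC. The only SISC-only region lay 11.9 kb inside the gene (chr3:28709823-28710075), with a −log10 q of 9.58 and 21.0. Strong regions in both SISC libraries were called weakly in 1 LISC library and so fell outside that class. One of these, 23.7 kb inside the gene (chr3:28721582-28722434), had a −log10 q of 142 and 186 in SISC and 6.94 in LISC replicate 2, and was not called in LISC replicate 1. The region 1.17 kb upstream of the start (chr3:28695174-28696732) had 61.9 and 72.01 in SISC and 15.2 in LISC replicate 2, and was likewise not called in LISC replicate 1. The region 7.68 kb inside the gene (chr3:28705578-28706436) was in every list, at 68.3 and 107 in SISC and 15.7 and 27.4 in LISC. All 3 regions thus had a higher −log10 q in both SISC libraries than in any LISC library that called them. No peak lay over the promoter itself. These values are relative to each library, and the 3 regions were chosen after values were seen. A weak region 22.0 kb upstream, nearest to Tnik (chr3:28675552-28675915), went the other way. It had 9.26 and 7.80 in SISC and 12.2 in LISC replicate 1, and was not called in LISC replicate 2.

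Slc15a1, the peptide carrier gene, had the most SISC-only regions, 7, and the most LISC-only ones, 2. Of the 7, only 3 had Slc15a1 as their nearest gene. These were 1 inside the gene, 20.2 kb from the start (chr14:121484293-121485027), with a −log10 q of 6.23 and 12.1, and a pair beyond its far end, at 22.1 kb (chr14:121437072-121437512; 6.23 and 8.96) and 23.3 kb (chr14:121435751-121436366; 16.2 and 50.7). A pair lay inside Dock9, a guanine nucleotide exchange factor gene upstream, with −log10 q of 9.40 to 17.8. The remaining pair lay inside or near Stk24, a protein kinase gene downstream, with 7.64 to 25.5. The stronger LISC-only region was also in Dock9 (chr14:121568754-121569418), with a −log10 q of 83.7 and 27.1 in LISC. The weaker one lay between Stk24 and Slc15a1 (chr14:121416639-121416873), with 13.9 and 7.23. Of the 7 SISC-only regions, 4 ranked between 5003 and 8495 among the 9555, and the strongest ranked 1893.

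At the amino acid carrier genes, 4 of 6 SISC-only regions lay inside the gene or over its end. Slc6a19 had 3 inside its annotated bounds. They lay over its upstream end (chr13:73700568-73701022), with a −log10 q of 11.04 and 11.6, at -3.90 kb from the listed start (chr13:73696536-73697134), with 28.5 and 12.2, and 569 bp inside its downstream end (chr13:73680314-73680971), with 14.0 and 45.8. Both of its gene ends were thereby called in SISC alone. Among 21887 genes, 1.38% had called gene ends in SISC alone, counting 1 end or both. The start listed in the promoter table lies inside the gene, downstream of that upstream end, and the region over that start was called in all 4 libraries, as given above. The fourth SISC-only region (chr13:73755685-73756259; 19.6 and 25.5) and the LISC-only region (chr13:73773552-73773957; 21.8 and 8.62) lay inside Slc12a7, a potassium-chloride cotransporter gene.

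Slc7a9 had 1 SISC-only region inside the gene, 7.11 kb from the start (chr7:35456204-35456941), with a −log10 q of 19.5 and 48.4. The other lay in Cep89, a centrosomal protein gene, 20.0 kb upstream (chr7:35428030-35428683), with 18.6 and 11.4. The LISC-only region was at the far edge of the window, 609 bp from an end of the hydrolase gene Nudt19 (chr7:35557568-35558034), with 24.9 and 13.2. Upstream of Slc7a9, inside Rhpn2, regions called in every library went both ways. One (chr7:35354697-35356083) had a −log10 q of 248.2 and 249.5 in SISC and 61.2 and 28.6 in LISC. Another (chr7:35386470-35387147) had 9.19 and 7.46 in SISC and 146 and 93.1 in LISC. The window of Slc7a9 was thus mixed beyond the gene. Its start-site region had a higher −log10 q in SISC, while a lean of its body rested on the 1 SISC-only region. Over the whole window the lead was also a single region, and it did not hold under every setting.

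Regions per library were compared over all 6 windows. The mean was 149 ± 18.4 per SISC library and 126.5 ± 3.54 per LISC library (SD, n = 2 each), a difference of 22.5 (two-sided exact permutation p = 0.333, the smallest that 2 against 2 allows). Both SISC counts exceeded both LISC counts at 3 of the 6 genes, against 23.8% of the 19470 genes, and the converse held at 0 of 6, against 16.3%. The 3 genes were Slc2a2 (11 and 16 against 9 and 8), Slc15a1 (30 and 36 against 28 and 26) and Slc6a19 (27 and 26 against 21 and 21). At the other 3 they overlapped, with 18 and 22 in SISC against 20 and 22 in LISC at Slc5a1, 34 and 40 against 29 and 35 at Slc2a5, and 16 and 22 against 17 and 17 at Slc7a9. SISC replicate 2 had the longest peak list, and 16 regions were called in that library alone, against 3 in SISC replicate 1 alone, 6 in LISC replicate 1 alone and 5 in LISC replicate 2 alone. Per 10000 peaks in its list, a library had 16.3 and 17.4 regions in the windows for SISC and 13.6 and 14.5 for LISC.

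Regions open in both tissues were also compared by rank within each library, as the depth of the libraries is unknown. All 57829 regions called in every library were ranked by −log10 q within each library, and a region was counted as higher in a group when both of its percentiles there exceeded both in the other group. This measure was added after values had been seen. Of the 102 shared regions in the windows, 42 (41.2%) ranked higher in SISC, against 30.4% of all shared regions, and 20 (19.6%) ranked higher in LISC, against 25.4%. Among the 28 shared regions nearest to a transporter end, 14 ranked higher in SISC and 5 in LISC. The widest gap was in favour of LISC, at the region inside Rhpn2 in the Slc7a9 window (chr7:35386470-35387147), at percentiles 4.54 and 1.57 in SISC and 72.6 and 73.6 in LISC. The widest in favour of SISC was at the region 3.95 kb before Slc2a5, at percentiles 72.6 and 63.1 in SISC and 3.09 and 13.1 in LISC. At Slc6a19 the region 12.1 kb upstream of the gene stood at 73.1 and 67.1 in SISC and 35.1 and 13.3 in LISC. The start-site region of Slc7a9 stood at 60.6 and 59.9 in SISC and 20.3 and 40.4 in LISC, and that of Slc15a1 at 39.5 and 43.6 in SISC and 7.83 and 31.7 in LISC. At Slc5a1 the start site also ranked higher in SISC, by a narrow margin, with 72.2 and 72.8 in SISC and 68.5 and 71.9 in LISC. The 5 nearest regions ranked higher in LISC were 3 at or near the Slc2a5 start, 1 inside Slc5a1 (31.2 kb from the start) and 1 downstream of Slc15a1.

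**Figure D4:**
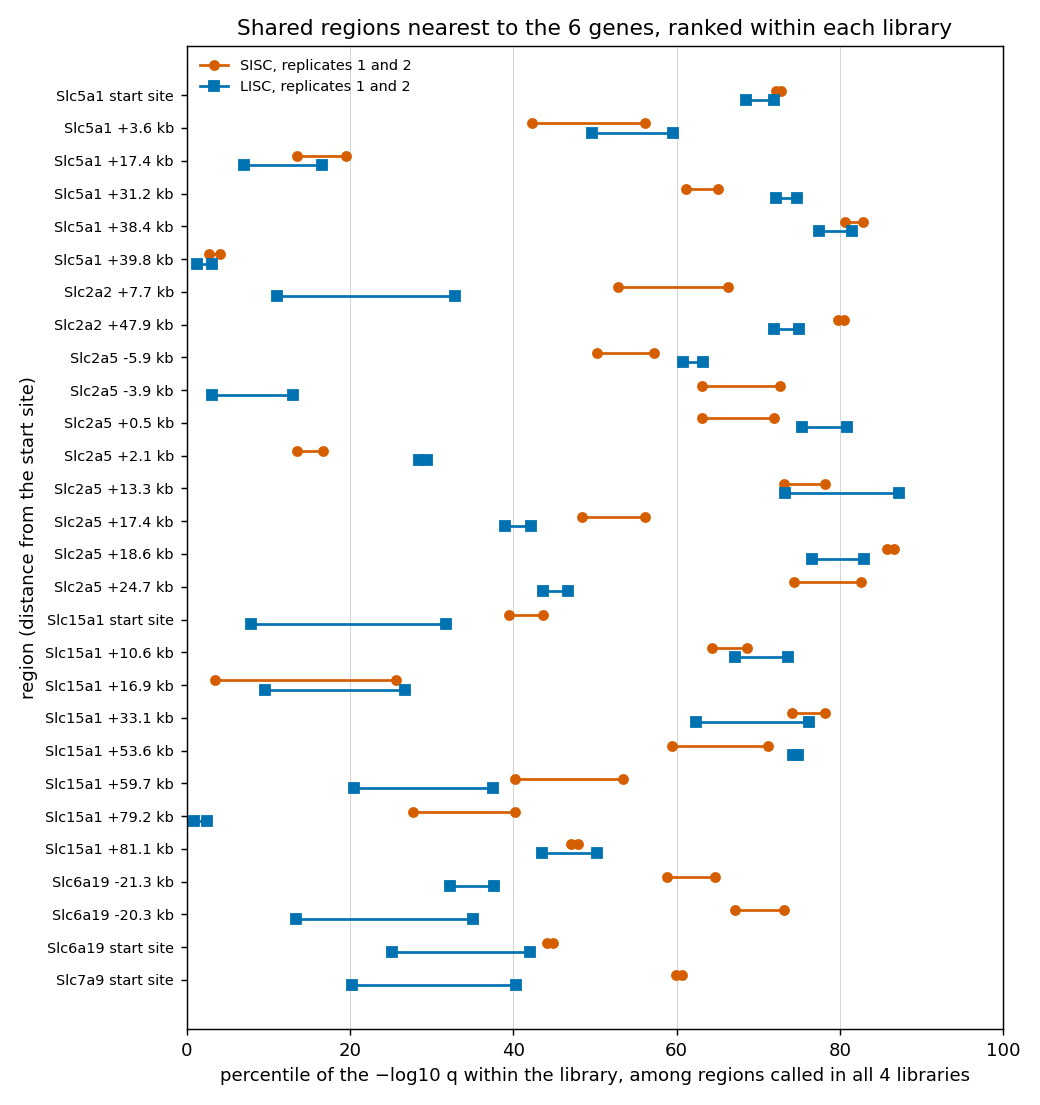
Percentile of the −log10 q within each library, among the 57829 regions called in all 4 libraries (x axis), for the 28 such regions nearest to the 6 genes (y axis, gene and distance from the start site). Orange circles joined by a line are the 2 SISC libraries and blue squares the 2 LISC libraries. The orange pair lies wholly to the right of the blue pair in 14 regions and wholly to the left in 5.

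The strongest regions of the windows were shared and belonged mostly to neighbours. By mean −log10 q they were the gene-end regions of Ywhah (Slc5a1 window; 553 and 448 in SISC, 609 and 306 in LISC), Rpl22l1 (Slc2a2 window), Eno1 (Slc2a5 window) and Faap24 (Slc7a9 window). In the windows of Slc15a1 and Slc6a19 they lay nearest to Stk24 and inside Slc12a7. Group-only regions were far weaker, with a median −log10 q of 17.1 and 19.8 in SISC for the 19 SISC-only regions, beside 13.8 and 16.8 for all 9555. The 102 shared regions had medians of 85.1 and 89.0 in SISC and 74.2 and 43.8 in LISC. SISC-only regions were 253 to 1151 bp wide, with a median of 599 bp, beside 457 bp for all SISC-only regions.

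Of 40 other listed transporters and partner genes, 20 had more SISC-only than LISC-only regions in their windows, beside 38.8% of the 19470 genes. Another 13 had fewer, beside 36.2%, and 7 had equal numbers. The median net of the 40 was 0.5, beside 0 over all genes. Slc2a7 lies in the Slc2a5 window, and windows of neighbours such as Slc5a4a and Slc5a4b can overlap, so a region can be counted more than once. None of the 40 had gene ends called in SISC alone, a pattern that only 1.38% of all 21887 genes had, so a count of none says little. None had them called in LISC alone, and 28 had them called in every library. For these last patterns the share over all genes was not counted. Slc7a8, which exchanges neutral amino acids at the basolateral side, led with 10 SISC-only regions and 2 LISC-only regions. Net counts of 3 were found at Slc7a1, Slc6a6, Slc43a2, Slc9a3 and Slc6a18, the last of which lies next to Slc6a19 and shares its regions. In the other direction, the lysosomal peptide carrier gene Slc15a4 had 0 SISC-only and 5 LISC-only regions. Atp1b1, which encodes a subunit of the sodium pump, had 1 SISC-only and 6 LISC-only. Slc5a9 had 1 and 4, and Slc7a6 also 1 and 4. Slc3a1, the partner of Slc7a9, had 3 SISC-only and 4 LISC-only regions.

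Genes with the most similar pattern were sought by the summed difference in region counts over the 15 possible sets of calling libraries. For Slc15a1, with the highest net, the closest were Hcn2 at a distance of 6 regions and Dpysl5 and Gdpd1 at 7. Slc5a1, Slc2a2 and Slc7a9 shared the lowest net. Closest to Slc5a1 were Ces1g and Slu7 at 4 and Tm2d2 at 5, to Slc2a2 Jade3 at 3, Rtl5 at 4 and Rprml at 5, and to Slc7a9 Trmt2a and Uts2 at 3 and Skil at 4. With 4 libraries this likeness is coarse, as many genes share such counts.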

How the data were processed

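ATAC-seq peak lists of 4 libraries, 2 of SISC and 2 of LISC, were used. The submitters' processing notes name the build mm10, the peak caller MACS2 2.2.7.1, the aligner Bowtie2 2.3.4.1, the trimmer cutadapt 3.4, and also bedtools and Picard. The calling threshold and any Tn5 shift were not given in the sources used here, and threshold and depth decide which weak regions are called. The authors deposited, per peak, a fold enrichment (ratio) over local background, a −log10 p, a −log10 q and a score that is 10 times the −log10 q, each relative to its own library, so they serve here to describe, rank or filter peaks within a list.

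Peaks overlapping by 1 bp were merged. A library has a region when 1 of its peaks lies in it, and values are those of its strongest peak there. Genes came from the RefSeq table of GRCm38.p6 (21887 protein-coding genes), and strand and start sites from its promoter table, which held 7 entries for the 6 genes. Coordinates are 1-based. Exon bounds were not used. The 6 genes, the lists and the rules for named genes were chosen with earlier results of these data known. Named were the 6 genes, every group-only region of their windows, the neighbouring genes those regions lay in or nearest to, the strongest shared region of each window, and 4 listed genes per direction with the largest net of at least 2, with ties. Some listed genes are not reported here. Other shared regions, and the Slc2a2 regions missing from a LISC library, were chosen after their values were seen. Merging was tested on simulated data and checked against bedtools 2.31.1. Software was scipy 1.17.1, pandas 2.3.3, numpy 2.4.6 and matplotlib 3.10.9 under Python 3.11.15. Alternatives to the peak threshold, the merging, the window, the gene assignment and the set of libraries are given at the end.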

Additional observations from a re-analysis of the deposited data

How the results depend on the processing

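Over 13 alternatives for each gene, Slc2a2, Slc2a5, Slc15a1 and Slc6a19 kept more SISC-only than LISC-only regions in all 13. The net of Slc5a1 was -2 at 50% cover, -1 within 10 kb, -1 inside the gene body and ranged from -4 (without LISC replicate 1) to 3 (without SISC replicate 1) with 1 library left out. That of Slc7a9 was -3 among the 41721 strongest peaks of each list. SISC-only regions numbered 8 within 10 kb, 7 in gene bodies and 11 by nearest gene end, where fewer regions enter, and 31 when a call in 1 LISC library was allowed. LISC-only regions numbered 9 at 50% cover, 2 within 50 kb, 1 within 10 kb, 1 in gene bodies, 1 by nearest gene end and 8 with 1 SISC library allowed. These last allowances were added after the data were seen. Regions in all 4 libraries numbered 56 among the strongest peaks, 52 within 50 kb, 23 within 10 kb, 19 in gene bodies and 28 by nearest gene end. With 1 library left out, so that 1 library defines a group, SISC-only regions ranged from 23 to 35 (the highest without SISC replicate 1), LISC-only regions from 5 to 11 (11 without LISC replicate 1 and 11 without LISC replicate 2, 8 without SISC replicate 2), and 4 to 6 genes had more SISC-only regions. Genes with an end called in every library numbered 2, and with a start site called in every library 2, among the strongest peaks, and at 50% cover 2 genes had ends called in SISC alone. The other settings moved none of these summed counts by more than 1.5 times, but nets of single genes moved more. Over the alternatives they ranged from 1 to 5 at Slc2a2, from 1 to 6 at Slc2a5, from 1 to 8 at Slc15a1, from 1 to 6 at Slc6a19 and from -3 to 5 at Slc7a9. The difference of 22.5 regions per library was 13 among the strongest peaks, 11 within 10 kb, 8.5 in gene bodies, 16.5 by nearest gene end and 22 to 28.5 in the others. With same-numbered libraries paired as a replicate block, also added after the data were seen, the differences were 12 and 33, with a mean of 22.5 (exact sign-flip permutation p = 0.5, the smallest that 2 pairs allow). Nothing in the labels ties same-numbered libraries to a shared animal. Unknown read depth limits every statement on a region that was not called.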
